A study of Mus musculus with 5 samples.

Results

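The genes described here are 10 of the NRF2 antioxidant program: the transcription factor NRF2 (Nfe2l2), its repressor Keap1, the adaptor Sqstm1, and the glutathione, thioredoxin and superoxide defence genes Gclc, Gclm, Slc7a11, Txnrd1, Prdx1, Srxn1 and Sod2. They were chosen by symbol, with earlier results of these data known, and without the heme and iron genes of the same program. All 10 of them were found among the 21289 genes of the deposited count table. Messenger RNA was sequenced from CD45+CD64+ macrophages sorted from the hearts of male, wild-type C57BL/6JGpt mice. All mice had a myocardial infarct (MI), and hearts were taken on day 7 after it. The untreated group (n = 2 samples) received no curcumol, and the curcumol group (n = 3 samples) received 30 mg/kg of this sesquiterpene by gavage each day for 7 days. The labels do not say whether the control mice received a vehicle, how old the mice were, or how many hearts went into a sample.

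NRF2 is made continuously and, in resting cells, KEAP1 brings it to a CUL3 ubiquitin ligase for destruction. Oxidants and electrophiles modify cysteines of KEAP1, NRF2 then escapes, pairs with small MAF proteins and switches on genes with an antioxidant response element, many of which make glutathione, recycle thioredoxin and peroxiredoxin, or import cystine. The autophagy receptor p62, product of Sqstm1, can bind KEAP1 in place of NRF2 and is itself an NRF2 target. Because the control lies in protein stability, the transcript of Nfe2l2 is not a measure of NRF2 activity. In macrophages the program limits damage from the oxidative burst and restrains inflammatory cytokine genes.

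The antioxidant response element has the core TGACNNNGC and can contain the AP-1 element TGANTCA, to which JUN and FOS proteins bind. RefSeq (GRCm38.p6) gave promoter windows for 9 of the 10 genes, by gene number. In the 250 bases before the annotated start sites, searched on both strands, 4 genes had the core (Nfe2l2, Gclm, Prdx1 and, at 1 of its 3 starts, Txnrd1) and 2 had an AP-1 element (Srxn1 and Prdx1). Of all 32851 promoter windows of this length, 10.2% held the core and 6.75% the AP-1 element. These shares count windows and not genes, and the 9 genes had 11 windows, so the counts by gene are not directly comparable. Neither was found in the windows of Keap1, Sqstm1, Slc7a11 and Sod2, which says only that these letters are not in these 250 bases. The following 3 windows are shown because they belong to the peroxiredoxin Prdx1, the sulfiredoxin Srxn1 that repairs it, and the glutathione synthesis subunit Gclm, whose transcripts are compared below. Capitals mark matches to either motif, on either strand. In the Prdx1 window the core and an AP-1 element overlap, and their shared last base stands 125 bases before the start site.
Prdx1, chr4:116685349-116685598, plus strand: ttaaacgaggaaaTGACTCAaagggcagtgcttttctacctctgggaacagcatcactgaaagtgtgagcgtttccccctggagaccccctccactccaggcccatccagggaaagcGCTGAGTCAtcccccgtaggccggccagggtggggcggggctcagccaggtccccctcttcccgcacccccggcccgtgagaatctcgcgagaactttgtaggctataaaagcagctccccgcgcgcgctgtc
Srxn1, chr2:152105274-152105523, plus strand: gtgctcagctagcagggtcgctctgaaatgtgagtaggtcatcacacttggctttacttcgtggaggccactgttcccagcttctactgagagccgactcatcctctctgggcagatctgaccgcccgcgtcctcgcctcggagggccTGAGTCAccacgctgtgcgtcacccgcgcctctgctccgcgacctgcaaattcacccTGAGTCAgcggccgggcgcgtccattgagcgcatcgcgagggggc
Gclm, chr3:122245307-122245556, plus strand: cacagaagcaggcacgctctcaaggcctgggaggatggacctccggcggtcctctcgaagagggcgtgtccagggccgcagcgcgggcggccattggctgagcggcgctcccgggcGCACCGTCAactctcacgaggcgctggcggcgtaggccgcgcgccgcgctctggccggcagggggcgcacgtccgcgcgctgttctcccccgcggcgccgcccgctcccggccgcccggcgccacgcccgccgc
A match in these windows describes letters and not a bound site, and no binding was measured.

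The mean transcript level was lower with curcumol than without for most of these 10 genes, but no single gene passed the test. Levels are given in CPM, a gene's share of its library's counts, after scaling by TMM, which adjusts library totals to the bulk of the genes. Each log2 fold change is that of curcumol over untreated ± its SE from edgeR's quasi-likelihood test. Of the 10 genes 9 had a negative log2 fold change (8 with total counts as the scaling, where Gclc stood at 0.041), as had 42.9% of the 14508 genes tested. The median over the 10 was -0.70 against 0.15 over all tested genes. Since the 10 were chosen with earlier results of these data known, this contrast describes them and is no independent support. At an adjusted p under 0.05, 0 of the 10 passed, where 0.207% of all tested genes did (0.0689% higher and 0.138% lower). At an unadjusted p under 0.05 the count was 6, of which 5 were lower and 1 higher (24.6% of all tested genes, 6.51% lower and 18.1% higher). The libraries of both groups did not overlap for 7, of which 6 were lower and 1 higher (44.4% of all tested genes, 14.9% lower and 29.5% higher). These shares include genes of low level. When only abundant genes were fitted (a mean log2 CPM of 5 or more), the median over all genes was -0.005. Over the 8 of the 10 genes in that fit it was -0.61. Other tools called more: DESeq2 called 4 of the 10 (Sqstm1, Gclm, Srxn1 and Sod2, all lower) and 16.5% of all genes, and limma-voom called 2 (Sqstm1 and Sod2) and 11.4% of all genes, but none with sample weights. Fits without an untreated replicate keep a single untreated library and so no untreated spread, and their calls are not counted.

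**Figure D1:**
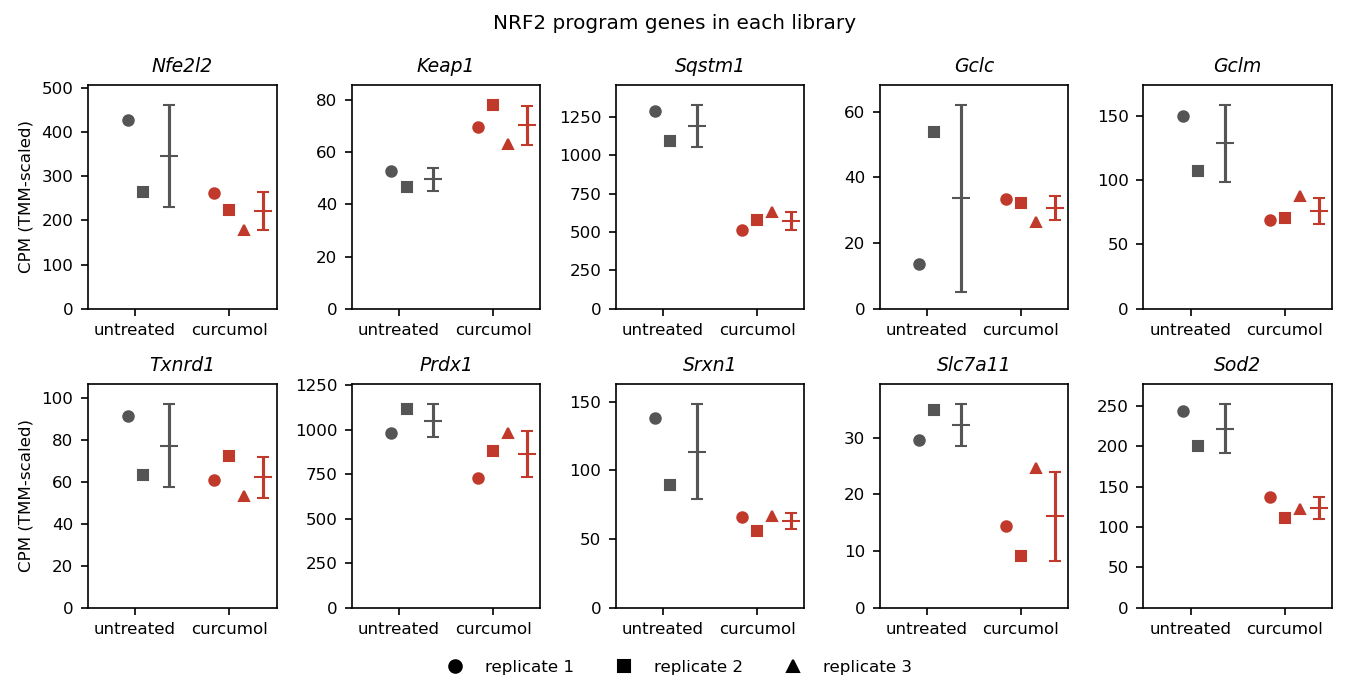
TMM-scaled CPM (y axis, linear, from 0) of the 10 genes in each library, with symbols for replicate numbers and the mean ± SD of 2 untreated (grey) and 3 curcumol (red) samples beside them. Sqstm1 and Sod2 show the widest gaps between the groups, Keap1 is the single gene with all curcumol libraries above the untreated ones, and the untreated libraries of Gclc lie on both sides of the curcumol libraries.

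Total counts lay between 39768705 and 43315822 per library, and the number of genes detected was 12243 and 12915 without and 17078 to 18501 with curcumol. The markers of the sort were present in every library: Fcgr1, which encodes CD64, stood at 349 and 373 CPM without and at 329, 300 and 250 CPM with curcumol, and Ptprc, which encodes CD45, at 321 and 260 CPM without and 443, 456 and 297 CPM with it. All 10 macrophage markers were detected, with a summed level of 38848 and 38873 CPM in untreated and 30606 to 36174 CPM in curcumol libraries. Lyz2 made up most of this sum, at 24996 and 26055 against 20527 to 24144 CPM. Of the 10 log2 fold changes 5 were positive and 5 negative, from -1.28 for Cd14 to 1.36 for Mertk, with a median of 0.12, and none passed the test. Other lists moved with the treatment. Summed over 11 neutrophil genes the level was 357 and 395 CPM without and 1522 to 3415 CPM with curcumol, with Camp and Ly6g at 0 in both untreated libraries. For 7 fibroblast genes the sums were 29.0 and 36.8 against 131 to 329 CPM, with Lum and Pdgfra at 0 in both untreated libraries, and for 7 endothelial genes 4.66 and 5.09 against 21.9 to 29.6 CPM, with Cdh5, Cldn5 and Tek at 0. Sums over 8 cardiomyocyte genes were 18.6 and 50.4 against 74.6 to 93.1 CPM, with Myh7, Ryr2 and Ttn at 0 without curcumol, and over 6 B cell genes 54.7 and 36.5 against 67.1 to 99.97 CPM, with Blk and Pax5 at 0. The sums of 8 T and NK cell genes overlapped, at 45.3 and 66.2 against 50.8 to 104 CPM. Stress genes of the dissociation response (immediate early and heat shock genes) went the other way, from 37230 and 38770 CPM to between 10524 and 17963 CPM over 13 genes, all 13 with a negative log2 fold change. What part these shifts have in the levels below was not tested. In bulk RNA, fewer cells of a type and less RNA per cell cannot be told apart.

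Among the regulators, the transcript of the activator and that of the repressor stood on opposite sides. Nfe2l2 (NCBI gene 18024) was at 428 and 264 CPM in untreated and at 261, 224 and 177 CPM in curcumol libraries. The groups were separated by 264 against 261 CPM only, and untreated replicate 1 stood well above the other 4 libraries. Its log2 fold change was -0.65 ± 0.26 (95% interval -1.28 to -0.01, edgeR adjusted p = 0.194). It was -0.25 without untreated replicate 1 and -0.93 without untreated replicate 2. When libraries were scaled by total counts alone, untreated replicate 2 (248 CPM) fell below curcumol replicate 1 (266 CPM), and the groups overlapped.

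Keap1 (NCBI gene 50868), the repressor and oxidant sensor, stood at 52.7 and 46.6 CPM without and at 69.6, 78.2 and 63.2 CPM with curcumol. Each curcumol library lay above both untreated ones, a mean ratio of 1.42. The log2 fold change was 0.50 ± 0.19 (95% interval 0.06 to 0.95, edgeR adjusted p = 0.156). It lay between 0.42 and 0.69 in the 14 alternative fits, where its sign was largely fixed in advance because the groups do not overlap.

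The ratio of these 2 transcripts does not depend on how the libraries are scaled. Per kilobase of transcript, Nfe2l2 stood at 11.9 and 8.28 times Keap1 in the untreated libraries and at 5.48, 4.19 and 4.09 times Keap1 in the curcumol libraries. The lowest untreated ratio was thus above the highest curcumol ratio, a wider separation than Nfe2l2 shows by itself. The ratio was not tested, since it was chosen after the levels were known.

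**Figure D2:**
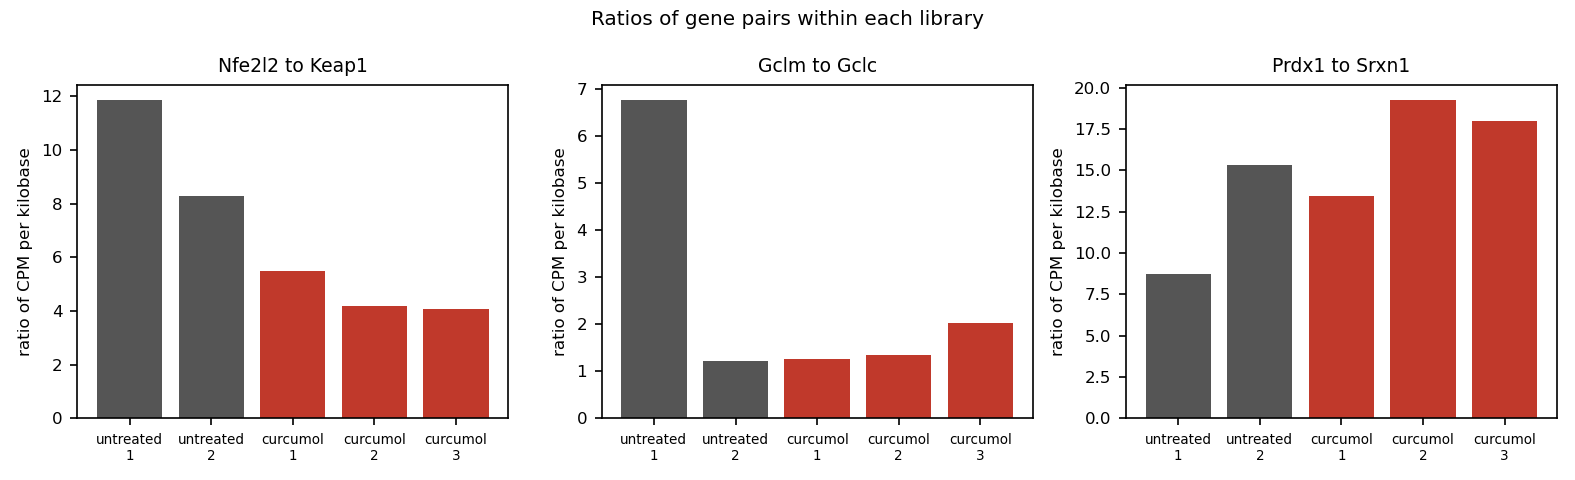
Ratios of CPM per kilobase (y axes, from 0) for Nfe2l2 to Keap1, Gclm to Gclc and Prdx1 to Srxn1 in each of the 5 libraries, untreated in grey and curcumol in red. Nfe2l2 to Keap1 is 8.28 and 11.9 in the untreated and 4.09 to 5.48 in the curcumol libraries, while Gclm to Gclc sets untreated replicate 1 (6.77) apart from the other 4 libraries (1.22 to 2.02).

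Sqstm1 (NCBI gene 18412), the p62 adaptor that links autophagy to KEAP1, had the smallest p of the 10 genes. Untreated libraries held 1288 and 1095 CPM of it, and curcumol libraries 513, 577 and 628 CPM. The lowest untreated library was 1.75 times the highest curcumol library, the widest gap among the 10 genes, and the spread within each group was small. The log2 fold change was -1.06 ± 0.17 (95% interval -1.46 to -0.66, edgeR adjusted p = 0.0637). It passed with DESeq2, with limma-voom, without a filter on low counts and among abundant genes. Over 14 alternatives adjusted p was lowest with DESeq2 (2.27e-08) and highest with a replicate block (0.149). The log2 fold change lay between -1.15 and -0.87.

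Of 11 partners and regulators of NRF2 listed beside these (small MAF proteins, the competitor Bach1, ligase subunits and others), none passed the test, 8 lay below 0 and 3 above, and their median was -0.28. With total counts as the scaling 6 lay below 0 and 5 above, and the median was -0.09. Those with the smallest p went both ways. Maff, a small MAF protein and stress-inducible partner of NRF2, stood at 12.7 and 17.0 CPM without and at 1.60, 1.82 and 3.45 CPM with curcumol (log2 fold change -2.69 ± 0.56, edgeR adjusted p = 0.0659). The other small MAF genes were much closer between groups, Mafg at 68.4 and 80.3 against 57.9, 59.3 and 67.0 CPM and Mafk at 38.0 and 65.5 against 34.0, 51.0 and 35.6 CPM. Nfe2l1, which encodes the NRF2 relative that induces proteasome genes, stood at 13.7 and 15.6 CPM without and at 36.2, 55.2 and 31.6 CPM with curcumol (1.49 ± 0.32, edgeR adjusted p = 0.0664). Dpp3, a peptidase that can bind KEAP1, stood at 175 ± 33.8 and 124 ± 15.6 CPM.

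In the glutathione branch, the modifier subunit and the cystine transporter were lower in each curcumol library, while the catalytic subunit could not be placed. Gclm (NCBI gene 14630), the modifier subunit of glutamate-cysteine ligase, stood at 150 and 107 CPM without and at 68.8, 70.8 and 87.6 CPM with curcumol. All 3 curcumol libraries lay below both untreated ones. The log2 fold change was -0.76 ± 0.21 (95% interval -1.27 to -0.25, edgeR adjusted p = 0.0845). It was -0.50 without untreated replicate 1 and -0.96 without untreated replicate 2.

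Gclc (NCBI gene 14629), the catalytic subunit of the same enzyme, stood at 13.5 and 53.8 CPM without and at 33.3, 32.3 and 26.5 CPM with curcumol. The untreated libraries differed 3.97-fold and enclosed the curcumol libraries, which lay close to each other. For comparison, the median fold between the untreated libraries was 1.40 over 2020 genes of like level (average log2 CPM of 4.5 to 5.5), and 2.72% of these exceeded the fold of Gclc. The log2 fold change of -0.13 ± 0.53 had an interval from -1.42 to 1.16 (edgeR adjusted p = 0.918), and its sign depended on 1 library: it was 1.20 without untreated replicate 2 and -0.81 without untreated replicate 1. It was also positive with total counts (0.04) and limma-voom (0.18). Per kilobase the ratio of Gclm to Gclc was 6.77 in untreated replicate 1, against 1.22 in untreated replicate 2 and 1.27, 1.34 and 2.02 with curcumol, so that untreated replicate 1 stood apart from the other 4 libraries.

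Slc7a11 (NCBI gene 26570), the cystine-glutamate exchanger that supplies cysteine for glutathione, had the lowest mean level per kilobase of the 10. It stood at 29.7 and 34.8 CPM without and 14.5, 9.20 and 24.7 CPM with curcumol. Untreated libraries agreed closely, and the curcumol libraries ranged over 2.68-fold without reaching them. Its log2 fold change was -1.0 ± 0.43 (95% interval -2.03 to 0.03, edgeR adjusted p = 0.214). Slc3a2, the heavy chain with which this exchanger and several other amino acid transporters pair, stood at 950 and 751 CPM without and at 512, 428 and 498 CPM with curcumol (-0.83 ± 0.17, edgeR adjusted p = 0.0659).

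Of 13 further glutathione genes tested, none passed, 7 lay above 0 and 6 below, and the median was 0.07. With total counts as the scaling 10 lay above 0 and 3 below, and the median was 0.26. Glrx, a glutaredoxin that reduces glutathionylated proteins, stood at 143 and 141 CPM without and at 92.3, 87.3 and 72.2 CPM with curcumol (-0.76 ± 0.17, edgeR adjusted p = 0.0683). Chac1, which degrades glutathione, was at 0 without and at 0.597, 0.613 and 1.41 CPM with curcumol. The mean with curcumol was 11.4 times the level of 3 counts in an untreated library, taken as the detection floor. This floor covers counting error only and is no firm bound. Postn, for example, had 0 counts in untreated replicate 1 and 222 in untreated replicate 2. The glutathione peroxidases Gpx1 (2349 and 2283 against 2154, 1939 and 2370 CPM) and Gpx4 (187 and 238 against 210, 191 and 322 CPM) overlapped between the groups, as did glutathione reductase, Gsr, at 221 and 112 against 172, 136 and 170 CPM.

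In the thioredoxin branch, sulfiredoxin was lower with curcumol in each library while the peroxiredoxin it repairs was not separated. Srxn1 (NCBI gene 76650), which reduces overoxidized peroxiredoxins, stood at 138 and 89.2 CPM without and at 66.5, 56.3 and 67.0 CPM with curcumol. The groups did not overlap, and the untreated libraries differed by 1.55-fold. Its log2 fold change was -0.85 ± 0.23 (95% interval -1.39 to -0.30, edgeR adjusted p = 0.0806), with -0.49 without untreated replicate 1 and -1.10 without untreated replicate 2.

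Prdx1 (NCBI gene 18477), a cytosolic peroxidase, was among the most abundant of the 10 genes per kilobase. Its CPM was 984 and 1116 without and 728, 883 and 984 with curcumol, so that the highest curcumol library reached the lower untreated one. The log2 fold change was -0.28 ± 0.18 (95% interval -0.72 to 0.16, edgeR adjusted p = 0.415), and it was closer to 0 without untreated replicate 2 (-0.16), without curcumol replicate 1 (-0.17) or with total counts (-0.09). Per kilobase the ratio of Prdx1 to Srxn1 was 8.73 and 15.4 without and 13.4, 19.2 and 18.0 with curcumol, and the groups overlapped. The promoter windows of Prdx1 and Srxn1 shown above both carry AP-1 elements, and only that of Prdx1 matches the core TGACNNNGC. Wider forms of the antioxidant response element were not searched.

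Txnrd1 (NCBI gene 50493), the cytosolic thioredoxin reductase, stood at 91.2 and 63.2 CPM without and at 60.8, 72.5 and 53.0 CPM with curcumol. The groups overlapped, since curcumol replicate 2 was above untreated replicate 2. The log2 fold change was -0.31 ± 0.23 (95% interval -0.88 to 0.25, edgeR adjusted p = 0.479), and it was -0.02 without untreated replicate 1 and -0.53 without untreated replicate 2.

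Of 11 other thioredoxin and peroxiredoxin genes none passed, 8 had a negative log2 fold change and the median was -0.26. With total counts as the scaling 6 were negative and 5 positive, and the median was -0.07. Txnip, which binds thioredoxin and inhibits it, was 1 of 3 genes above 0, with Sesn1 (0.46) and Sesn2 (0.40). It stood at 113 and 59.8 CPM without and 262, 431 and 248 CPM with curcumol (1.86 ± 0.38, edgeR adjusted p = 0.0659). Thioredoxin itself, Txn1, stood at 280 and 292 CPM without and at 207, 194 and 229 CPM with curcumol (-0.45 ± 0.15, edgeR adjusted p = 0.126). Prdx6, a peroxiredoxin that uses glutathione, stood at 266 and 245 against 165, 165 and 192 CPM (-0.56 ± 0.15, edgeR adjusted p = 0.0827), and in both genes the groups did not overlap.

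In superoxide defence, the mitochondrial enzyme was lower in each curcumol library, without passing the test. Sod2 (NCBI gene 20656), the manganese superoxide dismutase of mitochondria, which inflammatory NF-kB signalling also induces, stood at 243 and 200 CPM without and at 137, 111 and 122 CPM with curcumol. The lower untreated library was 1.46 times the highest curcumol one. Its log2 fold change was -0.84 ± 0.17 (95% interval -1.26 to -0.43, edgeR adjusted p = 0.0659). It passed with DESeq2 (adjusted p = 0.000112) and with limma-voom (adjusted p = 0.0323). The log2 fold change was -0.70 without untreated replicate 1 and -0.95 without untreated replicate 2.

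The cytosolic enzyme Sod1 stood at 65.8 and 42.2 against 36.1, 44.2 and 50.2 CPM, and the groups overlapped. Sod3, the secreted dismutase, had no count without curcumol and 6.14, 2.98 and 9.44 CPM with it (edgeR adjusted p = 0.0637). The mean with curcumol was 80.6 times the same floor. The fibroblast and endothelial sums given above were also higher in all 3 curcumol libraries, and their part in Sod3 was not tested. Catalase, Cat, stood at 171 and 166 against 127, 138 and 110 CPM (-0.43 ± 0.16, edgeR adjusted p = 0.159).

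Of the NADPH oxidase, which makes the superoxide of the oxidative burst, the membrane subunit Cybb stood at 552 and 411 against 646, 913 and 544 CPM and the cytosolic subunit Ncf4 at 398 and 386 against 314, 215 and 283 CPM (adjusted p = 0.274 and 0.155 in edgeR). None of the 9 genes of this list passed, and 6 were negative. NADPH supply and detoxification genes likewise had no call among 13 tested, with a median of -0.10. Nqo1, a quinone reductase widely used as an NRF2 reporter, was low but counted in every library, at 2.8 and 1.2 CPM without and 1.7, 1.2 and 1.8 CPM with curcumol, and the groups overlapped. Taldo1, of the pentose phosphate pathway, stood at 490 and 317 against 324, 296 and 342 CPM. Aox1 and Me1 had no count without curcumol and at most 0.749 and 1.32 CPM with it.

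**Figure D3:**
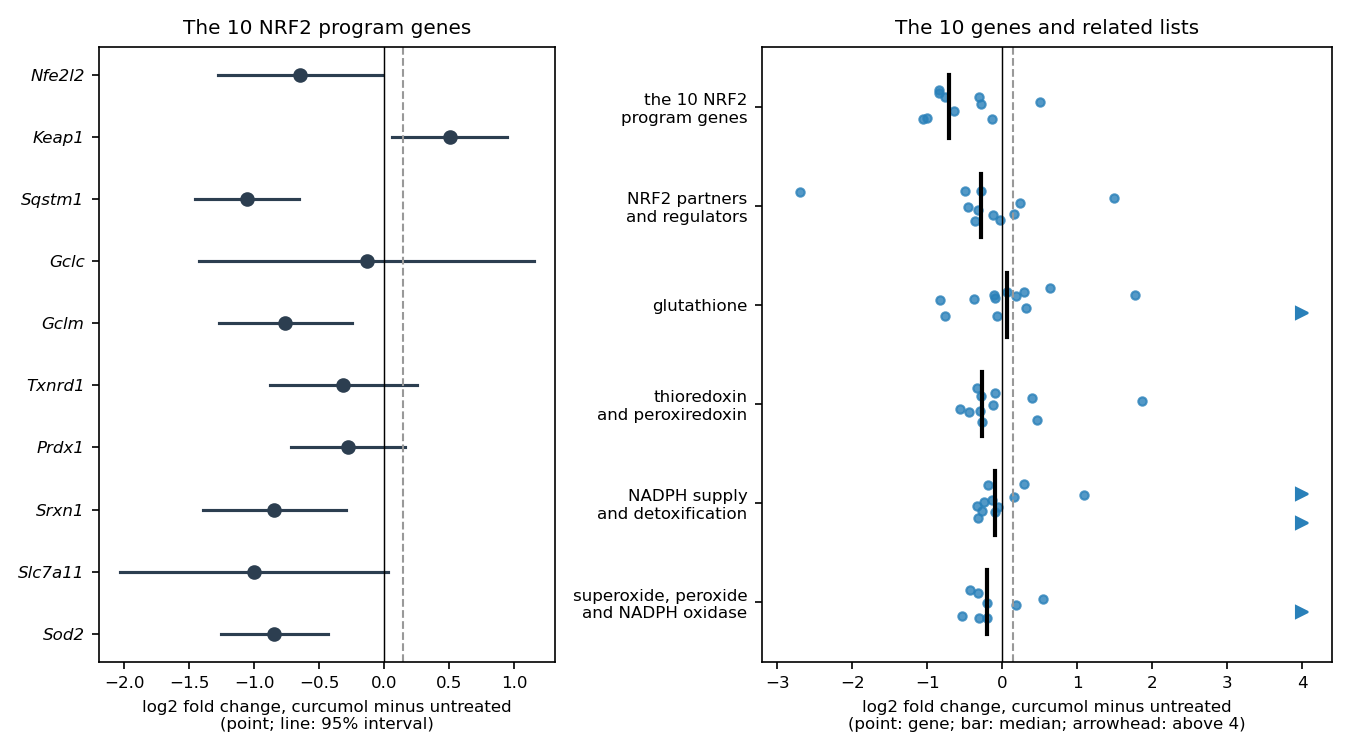
Log2 fold change, curcumol minus untreated (x axes). Left, the 10 genes with 95% intervals; right, each gene (point) and the median (bar) of the 10 and of 5 related lists, with genes above 4 drawn at 4 as arrowheads and the median of all tested genes (0.15) as a dashed line. The intervals of Gclc, Txnrd1, Prdx1 and Slc7a11 include 0, and the medians of the related lists lie between -0.28 and 0.07, against -0.70 for the 10.

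Over the 5 related lists together, 57 genes were tested, none passed, 36 were negative and 21 positive, and the median was -0.12. Without adjustment 10 were lower and 7 higher at a p under 0.05, as were 6.51% and 18.1% of all tested genes. With total counts as the scaling, 26 of the 57 were negative and 31 positive, the median over them was 0.08, that of the NADPH list 0.10 and that of the 10 genes -0.51, with 8 of the 10 negative. The direction of the pooled lists and of the NADPH list thus turns with the scaling. No test of the 10 genes against these lists was made.

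The 10 genes differed widely in level. Their order below depends on the transcript length chosen, and which transcripts of each gene were present was not determined. Per kilobase of the longest coding transcript in GENCODE M21, Prdx1 (458 ± 40.8 CPM per kilobase, SD, n = 2) and Sqstm1 (446 ± 51.0) led in the untreated libraries and did not differ beyond their spread. Nfe2l2 followed at 140 ± 46.7, then Srxn1 (40.4 ± 12.3) and Sod2 (37.8 ± 5.14), whose ranges overlapped, Gclm (23.0 ± 5.36) and Txnrd1 (21.3 ± 5.46), whose ranges also overlapped, Keap1 at 13.7 ± 1.20, Gclc at 9.83 ± 8.31, whose libraries lay on both sides of Keap1, and Slc7a11 at 3.50 ± 0.396. With curcumol (n = 3) Prdx1 stood alone at 377 ± 56.2, above Sqstm1 at 214 ± 21.6 and Nfe2l2 at 89.3 ± 17.0. Srxn1 (22.5 ± 2.16), Sod2 (21.1 ± 2.25), Keap1 (19.5 ± 2.09), Txnrd1 (17.2 ± 2.71) and Gclm (13.5 ± 1.84) followed, each with libraries that overlapped those of the next, so that Keap1 now ranked above Txnrd1 and Gclm, while Gclc (8.97 ± 1.06) and Slc7a11 (1.75 ± 0.854) remained the lowest.

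The curcumol libraries did not rank the same way for each gene. Curcumol replicate 3 was the lowest library for Nfe2l2 and Txnrd1, replicate 1 for Sqstm1, Gclm and Prdx1, and replicate 2 for Srxn1, Slc7a11 and Sod2. Untreated replicate 1 was the highest library for Nfe2l2, Sqstm1, Gclm, Txnrd1, Srxn1 and Sod2, and the lowest for Gclc.

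Genes of like pattern were sought by the root mean square difference of centred log2 CPM over the 5 libraries, among 4355 genes of average log2 CPM of at least 5. Closest to Nfe2l2 were Dipk1a (0.0304), the tumour suppressor Trp53 (0.0509), the glycolytic enzyme Pfkl (0.0609), the respiratory chain subunit Ndufs1 (0.0662) and Cpsf3 (0.0708). Trp53 stood at 147 and 96.3 CPM without and at 93.7, 82.2 and 67.9 CPM with curcumol, the same order of libraries as Nfe2l2. Among those closest to Sqstm1 were the transcriptional cofactor Cited2 (0.0506), Tmem199 (0.0946), the heme oxygenase Hmox1 (0.0959) and Errfi1 (0.102). Hmox1, a heme-degrading NRF2 target, stood at 1592 and 1157 CPM without and at 622, 690 and 807 CPM with curcumol, which matches the order of the curcumol libraries in Sqstm1. Such matches in order follow largely from the search itself, and shared control was not tested.

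**Figure D4:**
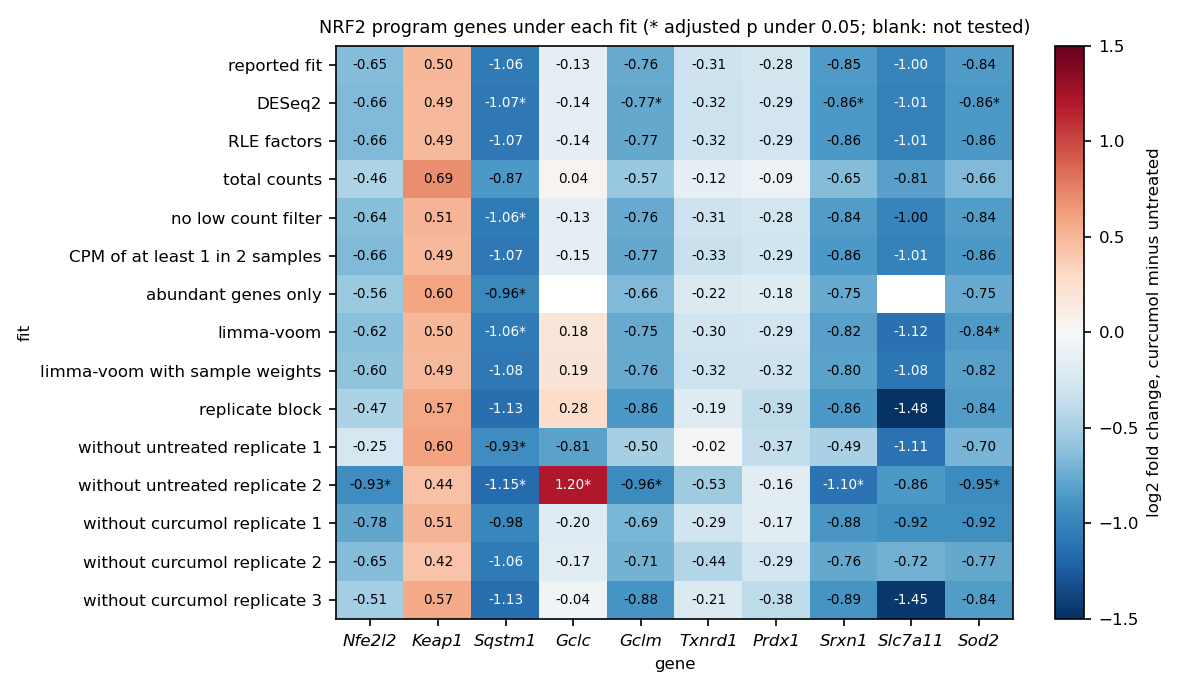
Log2 fold change, curcumol minus untreated, of each gene (columns) in the reported fit and 14 alternatives (rows), as colour and number, with an asterisk at an adjusted p under 0.05. Asterisks in the rows that leave out an untreated library rest on a single untreated library. Of the other rows, Sqstm1 is marked with DESeq2, limma-voom, no low count filter and abundant genes only. Gclc turns from -0.81 to 1.20 between the rows that leave out either untreated library. The other 9 genes keep 1 sign in every row that tested them.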

How the data were processed

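Read counts per gene from bulk RNA sequencing were used for 2 untreated and 3 curcumol samples, each column being tied to its sample by title. The counts, per the file's values and the submitters' deposited table, are whole and were not normalized by the authors. The submitters' processing notes name fastp, HISAT2, HTSeq and Bowtie2, without versions. Build and annotation: not given in the sources used here. The labels name 2 library kits, so strandedness is not settled. No label ties the samples to separate animals, and p-values therefore measure the spread between these samples, which may be technical. Every pair of libraries differed beyond sampling noise (chi-square per gene of 97.6 or more). In log2 CPM the untreated libraries correlated with each other at 0.925, no better than with the curcumol libraries (0.923 to 0.937). The curcumol libraries correlated with each other at 0.976 to 0.980.

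The groups were compared with edgeR 4.0.16 in R 4.3.3, using TMM, filterByExpr (minimum count 10), a quasi-likelihood fit on group alone (3 residual degrees of freedom), and Benjamini-Hochberg adjustment over 14508 genes with a threshold of 0.05. SEs and 95% intervals came from the F statistic. All 10 genes passed the filter. DESeq2 1.42.0, limma 3.58.1 and other alternatives are given in the closing section. Adh7, of the detoxification list, was not analysed here.

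Genes named were all 10, the 3 of smallest p in each related list, any of a list past the threshold, and the 5 nearest in pattern to Nfe2l2 and Sqstm1, of which 1 is not reported here. Mafg, Mafk, Gpx1, Gpx4, Gsr, Sesn1, Sesn2, Sod1, Cybb and Nqo1 were added after their values were seen. The 10 genes and the lists were chosen with earlier results of these data known.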

Additional observations from a re-analysis of the deposited data

How the results depend on the processing

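Over 14 alternatives each of the 10 genes but Gclc kept its direction wherever it was tested, which for groups that do not overlap is largely fixed in advance. Gclc, at -0.13, turned to 0.041 with total counts, 0.18 with limma-voom, 0.19 with sample weights, 0.28 with a replicate block and 1.20 without untreated replicate 2, with a range of -0.81 to 1.20 when 1 sample was left out. The cause was not tested.

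The number of genes called, 30 in the reported fit, was 2397 with DESeq2, 10 with total counts, 416 without a filter on low counts, 98 with a CPM of at least 1 in 2 samples, 179 when only abundant genes were fitted (a mean log2 CPM of 5 or more), 1661 with limma-voom, 8 with sample weights, and 0 to 3531 with 1 sample left out. Of the 10 genes, 0 were called in the reported fit (0.207% of all tested genes), 4 with DESeq2 (16.5%) and 2 with limma-voom (11.4%). Without a filter 1 was called (2.03% of all genes in that fit), and among abundant genes 1 (4.06%). With 1 curcumol sample left out 0 were called. The fit without untreated replicate 2 called 6 (5 lower and Gclc higher). The fit without untreated replicate 1 called 1, Sqstm1. In both fits the single remaining untreated sample is assumed to vary like the others, so these calls are listed but not counted. The median over the 10, -0.70, was -0.51 with total counts, where the median over all genes goes from 0.15 to 0.34. It was -0.61 among abundant genes, which drop Gclc and Slc7a11 and where the median over all genes is -0.005. With 1 sample left out it was -0.89 to -0.50.

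Replicate numbers are shared by both groups for 2 pairs, and nothing in the labels says that they mark a common animal or batch. Same-numbered samples deviated with correlations of 0.04 and -0.003. With the replicate block 45 genes were called, 0 of the 10 among them, and the median over the 10 was -0.66. Below about 0.08 CPM (3 counts) levels could not be told from 0.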

Other observations

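The deposited table carries pathway annotation, and its WikiPathways term for oxidative stress and redox, chosen after the data were seen, covers 80 genes, 8 of them among the 10 described above. Of the 72 tested genes of the term 36 were positive and 36 negative, with a median log2 fold change of 0.01 and none past the threshold in edgeR. Without adjustment 12 were higher and 9 lower at a p under 0.05, as were 18.1% and 6.51% of all tested genes. The 8 shared genes had a median of -0.48 and the remaining 64 tested genes 0.15, which is also the median of all tested genes. A smaller term of the same annotation, for transcriptional activation by NRF2 in response to phytochemicals, had 12 tested genes, 4 of them among the 10. Of the 12, 7 were negative and 5 positive, with a median of -0.23 and none past the threshold. At an unadjusted p under 0.05, 5 were lower and 3 higher, beside 6.51% and 18.1% of all tested genes. Its 8 other genes had a median of -0.084, with 4 negative and 4 positive.

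The genes of the oxidative stress and redox term with the smallest p were S100a9, Sod3 (given above) and S100a8. S100a8 and S100a9 encode the subunits of calprotectin, which neutrophils and monocytes make in large amounts. S100a9 stood at 88.5 and 85.4 CPM without and at 611, 296 and 691 CPM with curcumol, and S100a8 at 140 and 202 against 1395, 585 and 1466 CPM. Both are also in the neutrophil list. Ptgs2, the inducible cyclooxygenase, went the other way at 87.6 and 88.4 against 19.4, 22.6 and 37.2 CPM. Mgst2, a microsomal glutathione transferase, had no count without curcumol and 1.43, 1.79 and 2.16 CPM with it. The mean with curcumol was 23.4 times the floor of 3 counts.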
